A study of Homo sapiens with 6 samples.

Results

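The S100 genes encode small calcium-binding proteins with paired EF-hand loops. The set described here holds the 9 S100 genes S100A4, S100A6, S100A8, S100A9, S100A10, S100A11, S100A12, S100A13 and S100P, found by name among the 24878 genes of the deposited table, and each name matched 1 row. They were followed in MOLM-13, an established human cell line from acute myeloid leukaemia of the monocytic M5 type, by RNA-seq of poly-A selected RNA. There were 2 control libraries of cells without the knockout vector and without doxycycline. For the other 4 libraries, cells carried a vector for CaMK2D knockout (KO) under doxycycline control, given for 3 days in 2 of them and for 5 days in the other 2. No group was given doxycycline without the KO vector or the vector without doxycycline, so effects of the vector, of doxycycline and of time in culture cannot be told apart, and the sources used here do not say whether the cells were a pool or a clone. Whether the 2 libraries of each group are separate cultures is not in the labels, so every p-value measures only how far these libraries vary, and that variation may be technical.

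S100 proteins act mostly as dimers that change shape on binding calcium and then grip target proteins. S100A8, S100A9 and S100A12 are abundant in monocytes and neutrophils, where S100A8 and S100A9 form calprotectin, and once released they signal through receptors such as TLR4 and RAGE. S100A4, S100A6, S100A10, S100A11 and S100P work largely inside the cell, at the cytoskeleton, at membranes and with annexins, and S100A10 differs in holding its active shape without calcium.

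The data show 2 S100 genes that fell against control at both days, S100A4 by 6.90-fold at day 3 and S100A10 by 2.53-fold. The calprotectin genes S100A8 and S100A9 and the low-level S100A12 lay below both controls in all 4 KO-labelled libraries, but S100A8 and S100A9, which differed strongly between the KO-labelled libraries, did not pass the test, and S100A12 was too low to be tested. S100A6, S100A11 and S100P overlapped the controls, and S100A13, near the detection limit, lay above them.

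Of the 9 genes, 8 lie on chromosome 1 and S100P lies on chromosome 4 at 6693069 to 6697170 on the plus strand (GRCh38, GENCODE release 29). S100A9 (153357854 to 153361027, plus strand), S100A12 (153373706 to 153375649, minus strand) and S100A8 (153390032 to 153391188, minus strand) are neighbours, and 29004 bases separate S100A8 from S100A9. S100A6 (153534599 to 153536244) and S100A4 (153543613 to 153550136), both on the minus strand, lie 7.37 kb apart. S100A13 (153618787 to 153631360), on the minus strand, lies 68.7 kb beyond S100A4. S100A10 (151982915 to 151994390) and S100A11 (152032506 to 152047907), on the minus strand, lie 38.1 kb apart and 1310 kb from the rest.

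The bases before the start site are shown for the pair that moved together in these libraries, S100A8 and S100A9, and for the close neighbours S100A4 and S100A6, of which one fell and the other did not pass the test. The 250 bases before each start come from RefSeq (GRCh38.p14), 5′ to 3′ on the gene's strand, and capitals mark the letters TATAAA (the classical TATA box) and TTNNGNAA (a core of C/EBP sites, where N is any base) on either strand. RefSeq lists 3 starts for S100A8, and the one with TATAAA closest before it is shown. The S100A4 start used by RefSeq lies inside the longer GENCODE span.
S100A8, chr1:153391074-153391323, minus strand: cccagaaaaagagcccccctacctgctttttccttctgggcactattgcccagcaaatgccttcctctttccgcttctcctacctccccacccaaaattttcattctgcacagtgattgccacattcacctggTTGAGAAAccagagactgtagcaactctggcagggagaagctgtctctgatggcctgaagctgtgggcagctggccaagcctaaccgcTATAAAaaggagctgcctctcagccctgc
S100A9, chr1:153357604-153357853, plus strand: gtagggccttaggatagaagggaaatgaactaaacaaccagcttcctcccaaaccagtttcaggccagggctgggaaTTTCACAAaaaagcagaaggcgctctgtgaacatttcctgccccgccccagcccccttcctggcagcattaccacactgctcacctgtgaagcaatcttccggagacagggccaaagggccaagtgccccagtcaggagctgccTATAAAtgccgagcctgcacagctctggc
S100A4, chr1:153545807-153546056, minus strand: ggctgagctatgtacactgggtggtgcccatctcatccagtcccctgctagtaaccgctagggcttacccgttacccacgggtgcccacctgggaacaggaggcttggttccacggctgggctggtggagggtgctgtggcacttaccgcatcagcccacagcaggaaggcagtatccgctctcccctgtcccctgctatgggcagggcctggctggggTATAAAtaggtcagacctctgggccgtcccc
S100A6, chr1:153535992-153536241, minus strand: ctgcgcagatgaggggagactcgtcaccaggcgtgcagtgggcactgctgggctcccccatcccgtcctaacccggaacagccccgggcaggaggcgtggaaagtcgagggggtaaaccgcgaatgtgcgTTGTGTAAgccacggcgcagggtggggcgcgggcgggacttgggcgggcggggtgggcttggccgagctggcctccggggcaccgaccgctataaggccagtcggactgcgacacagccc

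S100A8 and S100A9 carry TATAAA at the same distance, with its first base 29 bases before the start, and S100A4 carries it 31 bases before. S100P has it 28 bases before its start. Over the 13 starts that RefSeq gives these 9 genes, 7 hold TATAAA in the 250 bases, as do 10.7% of the 35116 human promoters of this length in the same table. TTNNGNAA occurs before 8 of the 13 starts and in 33.2% of promoters. S100A8 matches it as TTGAGAAA and S100A9 as TTTCACAA, and the window printed for S100A4 holds no match to it, which says only that these letters are absent there. GAGGAA, the core of PU.1-type ETS sites, occurs before 3 of the 13 starts (1 for S100A9 and 2 for S100A8) and in 23.6% of promoters. GGGCGG, the SP1 box, occurs before 5 of the 13 starts, 3 times before S100A6, and in 42.6% of promoters. The windows of the S100A8 starts overlap, so 1 site of GAGGAA, of TATAAA and of TTGAGAAA there counts for 2 starts. By gene, TATAAA occurs for 6 of the 9, TTNNGNAA for 7, GAGGAA for 2 and GGGCGG for 5. No overlap between these motifs was removed, and a match is a description of letters.

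Library totals ran from 15456770 to 21081298 counts, and 14601 genes passed the filter on low counts, 8 of the 9 S100 genes among them. CAMK2D, the gene the vector targets, was counted over all its exons at 23.0 and 14.5 CPM (counts scaled to library size) in control cells, 14.7 and 15.6 after 3 days and 28.9 and 28.1 after 5 days. Neither difference from control passed the test (log2 fold change −0.30, adjusted p = 0.437 at day 3, and 0.61, adjusted p = 0.118 at day 5). At day 5 CAMK2D was called higher without the first control (0.97, adjusted p = 0.0317) and with the replicate number as a block (0.63, adjusted p = 0.0198). CAMK2D was not called lower in any of the analyses run. The edited site is not given in the sources used here, so the mRNA level does not check the labels. The monocyte markers CD14, CSF1R, CD33, ITGAM, FCGR1A, LYZ, CD86, CX3CR1, MS4A7, FCN1 and VCAN were fixed to check the cell type, and 10 of the 11 were measured, 9 of them at a mean of at least 1 CPM. Of these markers, CD14 was low, at 0.963 and 2.97 CPM in control cells, and FCN1 was at 0 and 0.287 CPM there. Summed T cell, B cell, erythroid, megakaryocyte and stromal markers were each at 11.2 CPM or less in every library. Summed epithelial and keratinocyte markers were at 17.4 to 34.1 CPM. Summed granulocyte markers stood at 1885 and 2272 CPM in control cells, 1177 and 1434 after 3 days and 1151 and 916 after 5 days. Of these, ELANE did not pass (adjusted p = 0.332 and 0.888). MPO was called lower at both days (log2 fold change −5.41, adjusted p = 0.0116, and −6.39, adjusted p = 0.00725). The day 3 call of MPO was lost without either control or either day 3 library. The share of counts from mitochondrial genes was 2.52 to 3.05% in the controls and 0.868 to 1.14% in the KO-labelled libraries, and its part in the results was not tested.

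In control cells the S100 genes spanned a wide range of levels per length, given as FPKM (fragments per kilobase of exon, scaled to library size). S100A4 was the highest at 474 ± 76.6 FPKM (SD, n = 2), which placed it 84th among the 24878 genes of the table. S100A11 followed at 234 ± 46.5 FPKM, S100A6 at 166 ± 44.2, S100A9 at 120 ± 2.40, S100P at 75.7 ± 59.2, S100A8 at 52.7 ± 1.82 and S100A10 at 49.6 ± 1.64. S100A12 was at 1.19 ± 0.259 FPKM and S100A13 at 0.101 ± 0.0220. In this order the gap exceeded the summed SDs only between S100A4 and S100A11, between S100A10 and S100A12 and between S100A12 and S100A13, and only genes next to each other were compared.

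**Figure D1:**
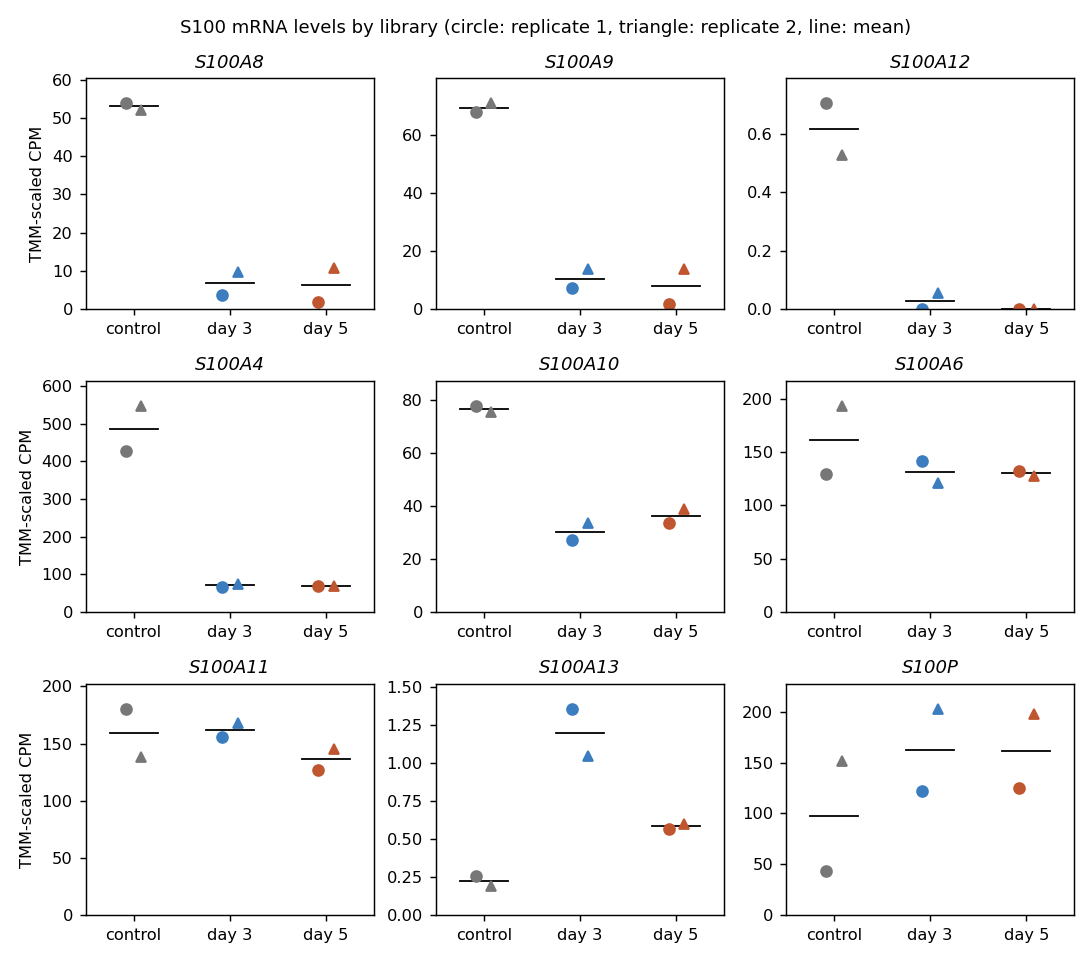
Level of each S100 gene in TMM-scaled CPM (vertical axis, from 0) by group (horizontal axis), with circles for replicate 1, triangles for replicate 2 and a line at the mean. S100A4 and S100A10 lie apart from the controls at both days with close replicates, S100A8 and S100A9 lie low but with replicate 2 above replicate 1, and S100P has a low first control.

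Calprotectin is the main calcium- and metal-binding protein pair of the monocyte cytosol. S100A8 was at 53.9 and 52.2 CPM in control cells, 3.75 and 9.83 after 3 days and 1.81 and 10.6 after 5 days. S100A9 was at 67.8 and 71.0 CPM in control cells, 7.14 and 13.9 after 3 days and 1.81 and 13.9 after 5 days. For both genes every KO-labelled library lay below both controls, and replicate 2 was the higher one at each day. Fewer cells of a type and less RNA per cell cannot be told apart in these bulk libraries, here and for the other genes.

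The log2 fold change of S100A8 was −2.97 (SE 0.90, adjusted p = 0.113) at day 3 and −3.09 (SE 0.91, adjusted p = 0.0974) at day 5. That of S100A9 was −2.72 (SE 0.92, adjusted p = 0.138) at day 3 and −3.14 (SE 0.94, adjusted p = 0.103) at day 5. Neither gene passed the threshold of 0.05 (edgeR quasi-likelihood test, Benjamini-Hochberg adjustment over 14601 genes), with fold changes near that of S100A4 but far larger standard errors. Replicate 2 stood 2.62-fold above replicate 1 for S100A8 at day 3 and 5.88-fold at day 5, and 1.95-fold and 7.69-fold for S100A9, against 0.969-fold and 1.05-fold in the controls. At day 5 the difference between replicates exceeded that of 99.6% of the 10189 genes with a mean of at least 5 CPM for S100A8, and of 99.7% for S100A9.

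Compared within replicate numbers, S100A8 was 14.4-fold lower at day 3 in replicate 1 and 5.31-fold lower in replicate 2, and 29.8-fold and 4.91-fold lower at day 5. S100A9 was 9.51-fold and 5.11-fold lower at day 3, and 37.5-fold and 5.10-fold lower at day 5. The calls turned with the analysis. Without the first day 5 library both genes passed at day 3 (adjusted p = 0.023 for S100A8 and 0.00665 for S100A9), as they did without the second (0.0218 and 0.00681) and with only the control and day 3 libraries (0.0232 and 0.0107). At day 5 both passed without the second day 5 library (log2 fold change −4.87, adjusted p = 0.0283, and −5.26, adjusted p = 0.0069), and S100A9 without the first (−2.33, adjusted p = 0.0295). DESeq2 called S100A8 at both days (adjusted p = 0.0263 and 0.0173) and S100A9 at day 5 (0.0206) but not at day 3 (0.0556). Their ratio moved less than their levels: FPKM of S100A9 over S100A8 was 2.19 and 2.37 in control cells, 3.32 and 2.46 after 3 days and 1.74 and 2.28 after 5 days. Over the 6 libraries the Pearson correlation of their log2 CPM was 0.989, a description that the group difference alone would raise.

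Of the 11 monocyte markers, 9 were tested, and 2 were called lower at day 3 and 3 at day 5, with 0 higher. Over all tested genes, 5.99% were called lower and 5.72% higher at day 3, and 7.05% lower and 7.44% higher at day 5. ITGAM, an integrin chain of myeloid cells, was called at both days (log2 fold change −1.27, adjusted p = 0.00964, and −0.79, adjusted p = 0.0368), and CX3CR1, the fractalkine receptor, at day 3 (−0.85, adjusted p = 0.0322). At day 5 the Fc receptor gene FCGR1A (−1.85, adjusted p = 0.0238) and MS4A7 (−0.81, adjusted p = 0.0341) were called. CD33 stood at −0.02 and −0.05. Leaving out 1 library, 0 to 3 markers were called at each day. ITGAM lost the call at day 3 without either day 3 library (adjusted p up to 0.0716) and at day 5 in 5 of the 6 fits (up to 0.142). CX3CR1 lost it without the first control or either day 3 library (up to 0.208), FCGR1A without either day 5 library (up to 0.108), and MS4A7 without either control or either day 5 library (up to 0.127).

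The summed monocyte markers were at 443 and 660 CPM in control cells, 183 and 340 after 3 days and 169 and 380 after 5 days, so that every KO-labelled library lay below both controls and replicate 2 was the higher in each group. LYZ, the lysozyme gene, made up much of that sum, at 139 and 391, 33.6 and 178, and 18.9 and 229 CPM in the same order, and did not pass (adjusted p = 0.634 and 0.688). Without LYZ, a step added after seeing the data, the sum was 304 and 269, 149 and 162, and 150 and 152 CPM, where the groups stayed apart and the replicates lay close. CSF1R, the receptor for the monocyte growth factor CSF1, was at 30.9 and 40.9 CPM in control cells, 1.35 and 6.81 after 3 days and 1.53 and 5.35 after 5 days, with the same order of replicates in the KO-labelled groups as S100A8, and did not pass (adjusted p = 0.0926 and 0.0733). The part of these markers in the S100A8 and S100A9 levels was not tested.

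S100A12, the third myeloid alarmin of the cluster, had 11 and 11 counts in control cells, 0 and 1 after 3 days and 0 and 0 after 5 days. It did not pass the filter on low counts and has no test. The summed counts at day 3, scaled for library size, were 22.6-fold lower than in the controls (exact 95% interval 3.65 to 931, counting error only). At day 5 both libraries were at 0, and the level was at least 3.70-fold lower than in the controls, taking 3 counts per library as the floor. Tested without a filter, the log2(FPKM + 1) values gave a difference of −1.13 (limma, adjusted p = 0.0415) at day 5 and −1.06 (adjusted p = 0.0551) at day 3, while edgeR without a filter gave adjusted p = 0.0917 and 0.269.

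S100A4, known in invasive and motile cells as a partner of non-muscle myosin, was the largest change among the called members. Its level was 427 and 547 CPM in control cells, 67.5 and 73.7 after 3 days and 70.2 and 70.0 after 5 days. The groups lay far apart, and the 4 KO-labelled libraries were close to each other. The mean fell from 487 ± 84.6 CPM to 70.6 ± 4.39 at day 3 and 70.1 ± 0.152 at day 5 (SD, n = 2), 6.90-fold and 6.94-fold lower (log2 fold change −2.79, SE 0.15, adjusted p = 0.000208, and −2.80, SE 0.15, adjusted p = 0.000141). The call held in each of the 16 alternative analyses at both days, with leave-one-out values between −2.95 and −2.59 at day 3 and between −2.97 and −2.64 at day 5. MYH9, the non-muscle myosin heavy chain that S100A4 binds, did not pass the test (log2 fold change 0.25, adjusted p = 0.174 at day 3, and 0.22, adjusted p = 0.208 at day 5).

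S100A10 pairs with annexin A2 at membranes, where the complex binds AHNAK and plasminogen. Its level was 77.7 and 75.5 CPM in control cells, 27.0 and 33.6 after 3 days and 33.6 and 38.9 after 5 days. No KO-labelled library reached either control. The log2 fold change was −1.34 (SE 0.16, adjusted p = 0.00354), or 2.53-fold lower, at day 3 and −1.08 (SE 0.16, adjusted p = 0.00582), or 2.11-fold lower, at day 5, and it was called in all 16 alternatives at both days.

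With S100A4 and S100A10, 2 of the 8 tested S100 genes were called lower at each day and none higher, with edgeR. Over all 14601 genes tested, 5.99% were called lower and 5.72% higher at day 3, and 7.05% lower and 7.44% higher at day 5. At an unadjusted p under 0.05, S100A8 and S100A9 were also lower at both days, and S100A13 was higher at day 3. Under that looser rule 14.5% of all tested genes were lower and 14.4% higher at day 3, and 14.8% were lower and 16.1% higher at day 5. Both KO-labelled libraries lay below both controls for 5 of the 9 genes at each day, 4 of them among the 8 tested, against 30.0% of all tested genes at day 3 and 28.4% at day 5. The median log2 fold change of the 8 tested genes was −0.82 at day 3 and −0.70 at day 5, beside −0.00012 and 0.015 over all tested genes. The members were chosen with earlier results of these data known, so these shares and medians are a description only. Both days were compared with the same controls, so they are not independent of each other.

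**Figure D2:**
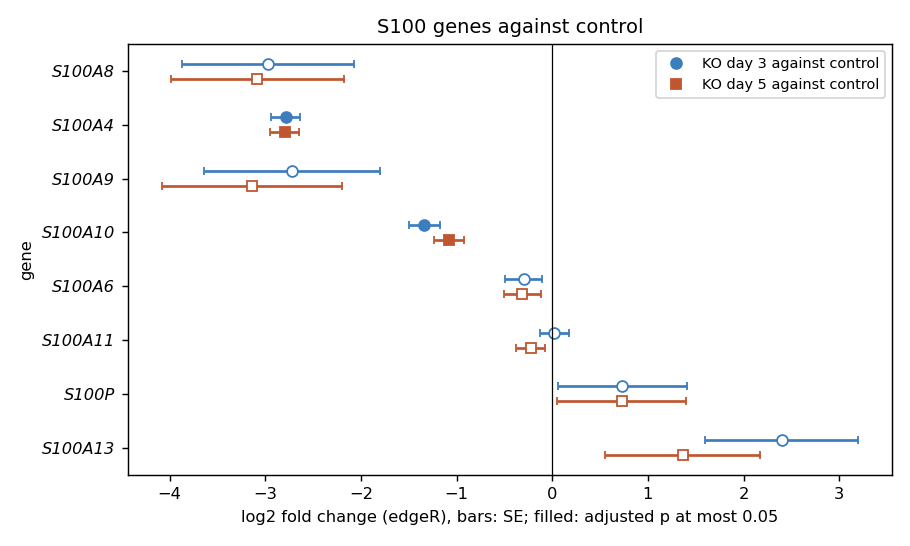
Log2 fold change against control (horizontal axis) of the 8 tested S100 genes (vertical axis), with circles for day 3 and squares for day 5, bars for the SE, and filled symbols for adjusted p of at most 0.05. S100A4 and S100A10 are filled at both days, and S100A8 and S100A9 lie as far to the left as S100A4 with wide bars.

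The remaining cytosolic members did not pass the test at either day. S100A6, also known as calcyclin and expressed in dividing cells, was at 129 and 193 CPM in control cells, 141 and 121 after 3 days and 132 and 127 after 5 days. The day 3 and day 5 libraries overlapped the control range or lay just under it, with log2 fold changes of −0.30 (adjusted p = 0.339) and −0.31 (adjusted p = 0.310). The 2 controls themselves differed by 1.49-fold. Without the first control, S100A6 passed at day 5 (log2 fold change −0.58, adjusted p = 0.0356), and without the second control the day 3 difference was 0.028. A stretch of 23 exonic bases (2.37%) overlaps an antisense transcript, and the library kit is not stated to keep strand.

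S100A11, an annexin A1 partner, was at 180 and 138 CPM in control cells, 156 and 168 after 3 days and 127 and 146 after 5 days. The groups overlapped, and the log2 fold changes of 0.02 (SE 0.15, adjusted p = 0.947) and −0.23 (SE 0.15, adjusted p = 0.366) did not pass. ANXA1 itself was at 24.5 and 11.8 CPM in control cells, 11.2 and 5.66 after 3 days and 11.4 and 6.06 after 5 days, and did not pass (adjusted p = 0.199 and 0.205).

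S100P, first found in placenta and frequent in carcinomas, was at 42.9 and 152 CPM in control cells, 122 and 203 after 3 days and 125 and 198 after 5 days. Replicate 2 was the higher in each group, by 3.54-fold, 1.67-fold and 1.58-fold, and the second control lay within the range of the KO-labelled libraries. The log2 fold change was 0.73 (SE 0.67, adjusted p = 0.539) at day 3 and 0.73 (SE 0.67, adjusted p = 0.536) at day 5. The first control decides that value: without it the difference was 0.096 at day 3 and 0.080 at day 5, and without the second control it was 1.93 and 1.88, none of them called (adjusted p from 0.121 to 0.948).

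S100A13, which takes part in the release of FGF1 and interleukin 1 alpha without a signal peptide, had 4 and 4 counts in control cells, 26 and 19 after 3 days and 10 and 11 after 5 days. Both KO-labelled groups lay above the controls. The log2 fold change was 2.40 (SE 0.80, adjusted p = 0.0904) at day 3 and 1.37 (SE 0.81, adjusted p = 0.296) at day 5, and neither passed. These few counts are uncertain further, because 24.2% of its exonic bases are shared with a processed transcript on the same strand and 10.6% with S100A1 on the opposite strand. S100A1 read 0.193 and 0.670 CPM in control cells, 1.198 and 2.03 after 3 days and 1.24 and 0.109 after 5 days.

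The makeup of S100 mRNA changed with these differences. The summed level of the 9 genes was 1080 and 1267 FPKM in control cells, 561 and 634 after 3 days and 524 and 653 after 5 days. S100A4 made up 38.9 and 41.7% of that sum in control cells, 11.6 and 10.9 after 3 days and 13.3 and 10.9 after 5 days. S100A4 ranked 1st per length in both controls and 4th in all 4 KO-labelled libraries, while S100A11 went from the 2nd place to the 1st with a share of 15.9 to 24.7% in the controls and 34.1 to 40.2% afterwards. A share rises when others fall, and S100A11 itself did not pass the test in either direction. The neighbours S100A4 and S100A6 gave an FPKM ratio of 3.13 and 2.68 in control cells, 0.453 and 0.577 after 3 days and 0.502 and 0.520 after 5 days, with no overlap between control and KO-labelled libraries.

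**Figure D3:**
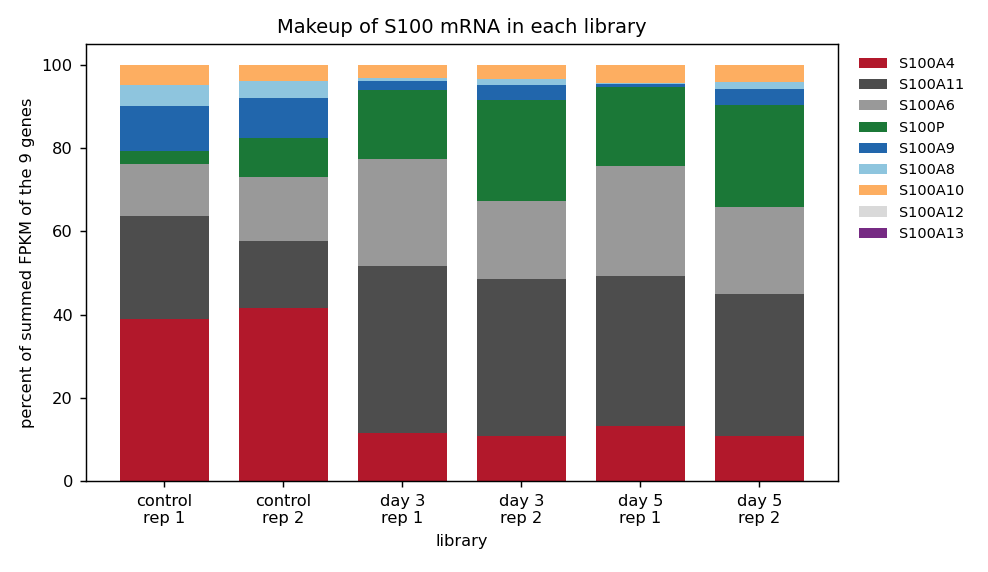
Share of each gene in the summed FPKM of the 9 S100 genes (vertical axis, percent) in each library (horizontal axis, grouped by control, day 3 and day 5). The S100A4 part shrinks from 38.9 and 41.7% in the controls to between 10.9 and 13.3%, and S100A12 and S100A13 are too small to see.

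Along the chromosome, S100A9 and S100A8 had like log2 fold changes of −2.72 and −2.97 at day 3, and S100A6 stood between genes with lower values. In the cluster that starts at S100A9, the genes on either side of a 143 kb stretch with no tested S100 gene, S100A8 and S100A6, had log2 fold changes of −2.97 and −0.30 at day 3, and S100A4 beyond S100A6 had −2.79. S100A3 lies within the span of S100A4 on the same strand and shares 0 exonic bases with it. It had 1.35 and 1.34 CPM in control cells, 0 and 0 after 3 days and 0.226 and 0.273 after 5 days, at least 8.37-fold lower at day 3 with 3 counts per library as the floor (adjusted p = 0.0212). That call was lost without either control or either day 3 library (adjusted p up to 0.105), and S100A3 did not pass at day 5 (adjusted p = 0.120). At day 3 it was the 1 of 3 tested genes called among the other S100 genes, of which 6 of 11 were measured. Over all tested genes 5.99% were called lower and 5.72% higher at that day. S100B was at 2.25 and 3.02 CPM in control cells and 0 to 0.604 in the KO-labelled libraries. It did not pass (log2 fold change −3.11, adjusted p = 0.161 at day 3, and −4.87, adjusted p = 0.0706 at day 5). FLG and TCHH, the fused-type S100 genes measured, were near 0.

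**Figure D4:**
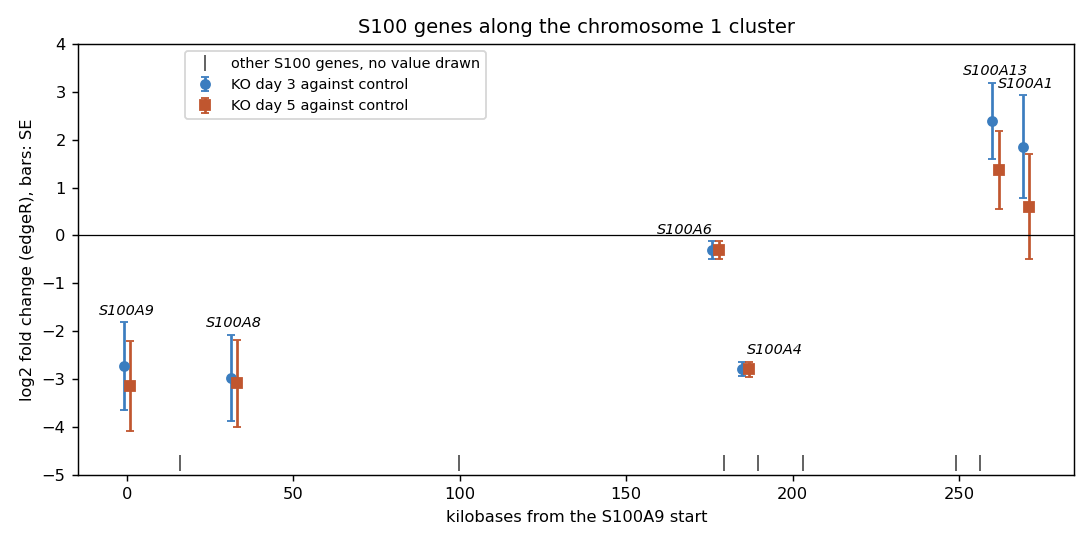
Log2 fold change against control (vertical axis, bars for the SE) of tested S100 genes by distance in kilobases from the S100A9 start (horizontal axis). Circles are day 3, squares are day 5, and ticks mark S100 genes with no value drawn. S100A3, tested and called lower at day 3, is among the ticks. S100A6 at −0.30 and S100A4 at −2.79 stand side by side, and S100A10, S100A11 and S100P lie outside the stretch.

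Between day 5 and day 3 none of the 8 tested S100 genes differed with edgeR (smallest adjusted p = 0.483, for S100A10), where 0.0274% of all tested genes (4 of 14601) were called in either direction and 2206 had an unadjusted p under 0.05. None of the 8 reached an unadjusted p under 0.05, and S100A3, outside the set, did not pass (adjusted p = 0.244). DESeq2 called 435 genes and none of the 8 tested S100 genes. S100A4 differed by −0.01 on the log2 scale (SE 0.14), S100A10 by 0.26 (SE 0.16), S100A11 by −0.25 (SE 0.15) and S100P by −0.0047 (SE 0.67). For S100A8 and S100A9 the SE of 0.89 and 0.91 leaves a wide range of differences undetectable.

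Among the receptors of secreted S100 proteins, 8 of 8 were tested, and 2 were called lower and 0 higher at each day. The shares over all tested genes were 5.99% lower and 5.72% higher at day 3, and 7.05% and 7.44% at day 5. These shares also stand beside the counts in the lists that follow. TLR4, the receptor of S100A8 and S100A9 on monocytes, was at 27.7 and 17.0 CPM in control cells, 3.80 and 2.14 after 3 days and 4.30 and 3.66 after 5 days (log2 fold change −2.91, adjusted p = 0.00451, and −2.49, adjusted p = 0.00581). CD36, a scavenger receptor that takes up fatty acids carried by S100A8 and S100A9, was at 69.8 and 43.0 CPM in control cells, 8.39 and 4.12 after 3 days and 7.12 and 5.07 after 5 days (−3.17, adjusted p = 0.00681, and −3.21, adjusted p = 0.0052). Both genes stayed called without any one library. AGER, which encodes RAGE, was at 2.31 and 3.54 CPM in control cells, 2.92 and 4.83 after 3 days and 7.46 and 6.66 after 5 days, and did not pass (adjusted p = 0.550 at day 3 and 0.0679 at day 5). BSG and CD33, both bound by S100A9, did not pass at either day (BSG 0.19 and 0.08, CD33 −0.02 and −0.05 on the log2 scale).

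Of the partner proteins, 16 of 20 were tested, and 4 were called lower at day 3 and 0 higher, against 4 lower and 2 higher at day 5. The S100A10 partners ANXA2 and AHNAK were in the lower group. ANXA2 was at 81.2 and 67.8 CPM in control cells, 44.5 and 42.8 after 3 days and 40.9 and 34.9 after 5 days (log2 fold change −0.77, adjusted p = 0.0194, and −0.98, adjusted p = 0.00725). AHNAK, a giant scaffold protein, changed by −0.90 (adjusted p = 0.0136) and −0.83 (adjusted p = 0.0152), and ANXA5, another annexin, by −0.53 (adjusted p = 0.0433) and −0.67 (adjusted p = 0.0180). IQGAP1, a scaffold bound by S100P, changed by −0.89 (adjusted p = 0.0151) and −0.64 (adjusted p = 0.0364). The S100A6-binding co-chaperones SUGT1 and CACYBP rose at day 5, by 0.82 (adjusted p = 0.00713) and 0.50 (adjusted p = 0.0305). Leaving out 1 library, the number of partners called ran from 0 to 5 at day 3 and from 1 to 6 at day 5. The 4 partners called at day 3 each lost the call without the first or without the second day 3 library, with adjusted p up to 0.147 for ANXA2, 0.124 for AHNAK, 0.290 for ANXA5 and 0.106 for IQGAP1, and ANXA2 also without the first control. ANXA5 was called at day 3 in 1 of the 6 fits, also losing the call without the first control or either day 5 library. At day 5 SUGT1 was called in each such fit and CACYBP in none (adjusted p from 0.0631 to 0.151). The day 5 calls of ANXA2 (adjusted p = 0.0520) and AHNAK (0.0848) were lost without the second day 5 library, and that of ANXA5 without either day 5 library (up to 0.101). That of IQGAP1 held only without the second control (up to 0.161 in the other fits).

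S100A8 and S100A9 assist the phagocyte NADPH oxidase, and genes of its subunits were tested. RAC2, the small GTPase subunit, was called lower at day 3 (log2 fold change −0.79, adjusted p = 0.0200), and RAC2 (−0.91, adjusted p = 0.0105) and CYBB, the catalytic subunit (−3.62, adjusted p = 0.0352), were among those called lower at day 5. CYBB had few counts, at 3.34 and 1.58 CPM in control cells and 0.0565 and 0.327 after 5 days. It did not pass at day 3 (adjusted p = 0.123). Other subunit genes did not pass at either day, among them NCF1 (−1.43 and −1.34, adjusted p = 0.121 and 0.129) and CYBA (0.39 and 0.16, adjusted p = 0.448 and 0.766). RAC2 lost the call at day 3 without either day 3 library (adjusted p up to 0.148) and at day 5 without the first day 5 library (0.0552). CYBB lost it without the first control or the first day 5 library (up to 0.208).

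Regulators known for myeloid S100 genes moved in both directions. Of 8 tested, CEBPD (log2 fold change −1.19, adjusted p = 0.0305) and SPI1, which encodes PU.1 (−0.69, adjusted p = 0.0320), were called lower at day 3. At day 5 both were called lower (−1.05, adjusted p = 0.0381, and −0.58, adjusted p = 0.0487), and CEBPA (0.48, adjusted p = 0.0287) and CEBPB (0.59, adjusted p = 0.0345) higher. Leaving out 1 library gave 0 to 2 calls in this list at either day. Each of these 6 calls was kept in 1 to 3 of the 6 fits, and every one was lost without either day 3 library, with the highest adjusted p between 0.130 for CEBPA at day 5 and 0.208 for SPI1 at day 3. The other EF-hand genes, 24 of them tested, had a median log2 fold change of −0.01 at day 3 and −0.03 at day 5. At day 3 CAPNS1, CETN3 and SRI were called higher (0.63, 1.33 and 0.70). At day 5 NUCB2, which encodes nucleobindin 2, rose by 1.03 (adjusted p = 0.00863), CETN3 by 1.33 (adjusted p = 0.0256), and AIF1 (−0.53, adjusted p = 0.0233) and EFHD2 (−0.49, adjusted p = 0.0320) were called lower. Of these, NUCB2 stayed called without any one library. The 3 genes called at day 3 lost the call without either day 3 library (adjusted p up to 0.249, for SRI). CETN3 also lost it without either control, and SRI without the first control or either day 5 library. At day 5 CETN3 lost it without the second control or the first day 5 library (up to 0.118), AIF1 without the first day 3 library or either day 5 library (up to 0.119), and EFHD2 in 5 of the 6 fits (up to 0.172).

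**Figure D5:**
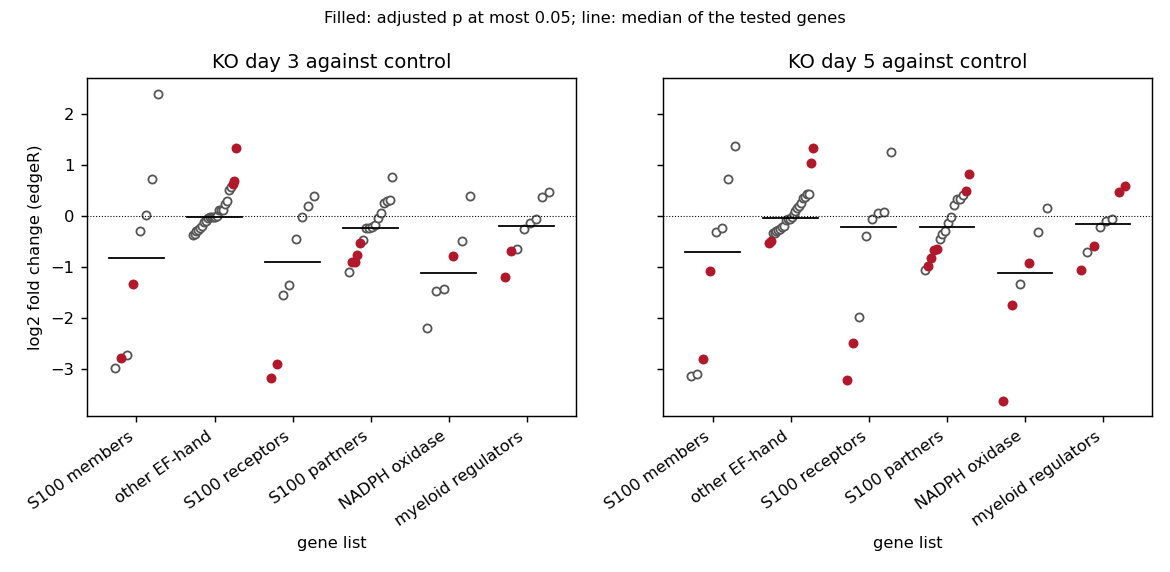
Log2 fold change (vertical axis) of each tested gene by list (horizontal axis) at day 3 and day 5, filled where adjusted p is at most 0.05, with a line at the median. The S100 line lies at −0.82 and −0.70 and that of the other EF-hand genes at −0.01 and −0.03. Members and lists were chosen with earlier results of these data known.

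The genes most alike to the highest S100 genes over the 6 libraries were found among 9684 protein-coding genes by the Pearson correlation of log2 CPM. For S100A4 they were INSIG1 (r = 0.998), ECM1 (r = 0.995) and MSMO1 (r = 0.994). INSIG1 was at 374 and 394 CPM in the controls and between 83.9 and 92.0 in the KO-labelled libraries. With 3 groups of 2 libraries, any gene with a large fall shared by both days scores high on this measure, and 15 genes had a correlation over 0.99. For S100A6 they were ABHD17A (r = 0.996), ZNF331 (r = 0.974) and SKIDA1 (r = 0.972), and for S100A11 SLC1A4 (r = 0.984), UBE2E1 (r = 0.966) and TMEM33 (r = 0.948). The libraries are shared by all genes and only 6 in number, so these values are a description.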

How the data were processed

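Raw read counts and FPKM values per gene and library were deposited by the authors in one table of 24878 genes, per the file headers. HISAT2, HTSeq 0.11.2, DESeq2 1.26.0 and the build GRCh38 are named in the submitters' processing notes. The sources used here do not give the annotation, the counting options or the role of each tool. The deposited FPKM values use lengths that equal the exonic lengths of GENCODE release 29 for the 9 genes. Because FPKM here is scaled by the table total, it carries no TMM factor.

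The deposited counts were tested with edgeR 4.0.16 (R 4.3.3). The filterByExpr function, at a minimum count of 10 and a minimum total of 15, left 14601 genes, and one robust quasi-likelihood model with 3 groups, TMM factors and no block was fitted (3 residual degrees of freedom). Benjamini-Hochberg adjustment ran over all tested genes, with a threshold of 0.05. The SE was taken as the size of the log2 fold change divided by the root of its F value. Levels are CPM with TMM-scaled library sizes. The script was tested on simulated data. There it recovered 39.1 to 44.2% of 2-fold changes and 62.8 to 76.5% of 4-fold changes, with 9 to 12 false calls per comparison. A gene that did not pass may therefore still differ.

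The alternatives were other scaling factors, other filters, DESeq2 1.42.0, fits of only the groups compared, a block for the replicate number, leaving out each library, and limma 3.58.1 on the log2 of the deposited FPKM plus 1 or 0.1. A count of 0 allows 0.144 to 0.193 CPM per library (3 counts), and intervals and floors cover counting error only. In no group were the 2 libraries repeats of each other within sampling noise (chi-square over degrees of freedom 17.4 to 37.7). Pairs across groups were not compared in this way.

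The members and gene lists were chosen with earlier results of these data known. By rule the text names all 9 members, from each list up to 4 genes, those of smallest adjusted p on each day, and the 3 genes most alike to each of the 3 highest members. From the lists mostly called genes are named, and some within that limit that did not pass, such as LY96 and CAPN1, are left out. AGER and S100A1, within that limit, did not pass and are named as a receptor and as an overlapping gene. MYH9, ANXA1, CACYBP, BSG and CD33, which that rule does not require, are named as textbook partners or receptors. CYBA is named as an oxidase subunit, and LYZ, CSF1R, ELANE and MPO as markers. These were chosen after their values were seen. One result that the rule names is not reported here. Lists hold genes known to bind, sense or regulate S100 proteins, and were described by counts, not tested as sets.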

Additional observations from a re-analysis of the deposited data

How the results depend on the processing

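Of 374 alternative values of the 8 tested S100 members, 327 kept direction and side of the threshold, 18 newly passed it, 29 changed sign and none lost a call. S100A3, outside the set, lost its day 3 call without either control or either day 3 library, and DESeq2 gave it no adjusted p. The number of S100 genes called at day 3 was 4 with only the 2 groups compared and 2 to 4 with 1 library left out. At day 5 it was 4 with DESeq2, 4 with limma on log2(FPKM + 1), 4 with log2(FPKM + 0.1), and 2 to 4 with 1 library left out. Between the days it was 0 throughout. The cause was not tested.

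Over all genes, calls at day 3 (1710) became 2925 without a filter, 2638 with DESeq2, 254 with limma without a filter and 282 to 1906 with 1 library left out (282 and 333 without the first and second day 3 library, 1059 without the first control). At day 5 (2117) they became 3234 without a filter, 1315 with only the 2 groups compared, 605 with limma without a filter and 723 to 1874 with 1 library left out (914 and 723 without the first and second day 5 library, 1370 without the first day 3 library). Between the days (4) they became 599 without a filter, 435 with DESeq2, 1 with limma on log2(FPKM + 1), 0 with log2(FPKM + 0.1) or without a filter, and 1 to 15 with 1 library left out.

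The replicate numbers, and the letters A and B in the library titles that go with them, are the only signs of pairing. Libraries with the same number deviated together (r = 0.355 for control and day 3, 0.303 for control and day 5, 0.347 for day 3 and day 5), but the labels do not say that they share a culture. With the replicate block the S100 members called stayed at 2, 2 and 0 of 8 tested. All genes called became 4064, 4418 and 1117 of 14601, from 1710, 2117 and 4 without it. For S100A8 and S100A9 the adjusted p was 0.11 and 0.148 at day 3 and 0.0973 and 0.115 at day 5 with the block. Calls in the lists with the block, at day 3 and day 5, were 7 and 11 of 16 tested partners (4 and 6 without it). They were 5 and 5 of 8 regulators (2 and 4) and 5 and 8 of 24 other EF-hand genes (3 and 4). For monocyte markers they were 6 and 6 of 9 (2 and 3), and for receptors 3 and 3 of 8 (2 and 2). Calls over all genes rose as well, so these counts are a description only. CAMK2D was called higher between the days with the block (0.91, adjusted p = 0.00946), without a filter (0.86, adjusted p = 0.0102) and with DESeq2 (0.90, adjusted p = 0.0376).

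All 29 sign changes were in values that never passed the test. At day 3 S100A6 ran from −0.56 to 0.028 and S100A11 from −0.15 to 0.23 with 1 library left out, and S100A11 was −0.0033 at 5 CPM and −0.0031 with limma. CAMK2D ran from −0.59 to 0.068 at day 3 with 1 library left out, the highest without the first control. Between the days, with 1 library left out, S100A4 ran from −0.11 to 0.011, S100A6 from −0.16 to 0.067, S100A8 from −1.90 to 0.68, S100A9 from −2.54 to 0.39 and S100P from −0.37 to 0.36. At 5 CPM the values were 0.0071 for S100A4, 0.0043 for S100A6 and 0.016 for S100P, and S100P was 0.0089 with the block. With limma they were 0.067 and 0.068 for S100A4, 0.068 and 0.069 for S100A6, and 0.081 for S100P.
Levels per length with TMM-scaled libraries moved beyond the SD only for S100A4 (68.4 against 70.3) and S100A6 (134 against 137) at day 5. S100A12 and S100A13, with few counts, and S100P, with unlike controls, are limited most.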
